A study of Mus musculus with 6 samples.

Results

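Insulin and insulin-like growth factor signalling reaches the heart through a short chain of proteins, and the transcripts of 9 genes along that chain are described here: the receptors Insr and Igf1r, the adaptors Irs1 and Irs2, the phosphoinositide 3-kinase (PI3K) subunits Pik3ca and Pik3r1, the kinases Akt1 and Akt2, and Gsk3b. They were picked by symbol from a table of 26835 genes measured in mouse hearts. Each symbol matched 1 row, so 9 of 9 members were found. Of these, 7 had a mean of at least 1 FPKM (fragments per transcript length and sequencing depth) and were tested among 10329 genes. Pik3ca and Igf1r lay below that limit, and their tests come from a fit that admitted genes with a mean of at least 0.1 FPKM.

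As background, insulin or IGF1 binding to its receptor tyrosine kinase leads to phosphorylation of the insulin receptor substrates, which recruit PI3K to the membrane. The lipid it makes there brings AKT to its activating kinases, and AKT then phosphorylates and inhibits GSK3 and keeps FOXO transcription factors out of the nucleus. In heart muscle the pathway is known for glucose uptake, physiological growth and survival. Transcript levels say nothing of the phosphorylation by which the pathway signals.

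All animals were wild-type C57BL/6 mice aged 7 to 8 weeks, and 2 heart libraries were made for each of 3 groups. Control mice were injected intraperitoneally with 10% DMSO. CFZ mice were injected with the irreversible proteasome inhibitor carfilzomib, used against myeloma, at 8 mg/kg, and CFZ_EA mice with the same dose while also receiving electroacupuncture (a current passed through needles) at the PC6 acupoint. Days 0, 2, 4 and 6 are listed for all samples, but the labels do not tie them to injection, needling or collection, nor do they name the heart chambers used. A group with electroacupuncture and no carfilzomib was not analysed here, and because the labels do not say whether replicates came from separate mice, p-values here reflect the spread between the deposited samples alone, possibly a technical one. Estimated counts per library summed to between 50013990 and 75742448, and those of a single member lay between 429 and 15113. All 14 cardiomyocyte markers were detected in all 6 libraries, control replicate 2 stood apart on the first principal component (48.0, against -22.1 to 0.37 elsewhere), and markers of atrial muscle summed to 347 to 456 FPKM in CFZ against 1117 and 5905 FPKM in CFZ_EA and 1836 to 3010 FPKM in control.

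The promoters of Irs1 and Irs2 are shown because their start regions share letters, so the pair was picked by its matches. The levels of these 2 adaptors over the libraries are given below. RefSeq promoters on GRCm38.p6, from 250 bases before to 50 after an annotated start, were matched for 8 of the 9 members, all but Insr. Capitals mark matches to CAAAACA (an insulin response element, here as its reverse complement TGTTTTG) and to CACGTG (an E-box). Both lie on the minus strand and are printed 5′ to 3′. Irs1 covers chr1:82291390-82291689 and Irs2 covers chr8:11008880-11009179.
Irs1: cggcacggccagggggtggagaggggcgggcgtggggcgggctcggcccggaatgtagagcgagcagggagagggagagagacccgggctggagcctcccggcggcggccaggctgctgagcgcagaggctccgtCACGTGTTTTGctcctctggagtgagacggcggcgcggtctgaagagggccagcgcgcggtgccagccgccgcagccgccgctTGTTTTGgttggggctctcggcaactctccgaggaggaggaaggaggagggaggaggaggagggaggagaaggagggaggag
Irs2: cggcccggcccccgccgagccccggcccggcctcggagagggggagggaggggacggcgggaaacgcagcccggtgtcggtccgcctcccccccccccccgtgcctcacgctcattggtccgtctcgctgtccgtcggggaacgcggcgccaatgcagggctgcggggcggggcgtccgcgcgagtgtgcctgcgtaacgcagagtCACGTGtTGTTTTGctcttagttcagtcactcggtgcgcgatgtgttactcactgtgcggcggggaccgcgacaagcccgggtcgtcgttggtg

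In Irs1 the E-box occupied positions 136 to 141 of the 300 bases and overlapped the TGTTTTG at 140 to 146, and a second TGTTTTG lay at 219 to 225. In Irs2 the E-box lay at 207 to 212 and the TGTTTTG at 214 to 220, separated by a single base. On either strand, 6.28% of 32851 promoters of this length held CAAAACA, 7.15% held CACGTG and 0.408% held both. Of the 13 promoters of the members, only these 2 held either. Those of Pik3r1 and Gsk3b, the pair of members whose levels had the highest Pearson r over the libraries (0.74), held neither. Other motifs searched on both strands were GTAAACA (bound by FOXO factors), found in 3.65% of all promoters and in 1 of 2 for Akt1, and TGACGTCA (the cyclic AMP response element), found in 1.79% of all promoters and in 0 of the 13. A match is a description of letters and not a site of binding. The RefSeq start used for Irs2 lay 471 bases, and that for Irs1 23 bases, from the end of the deposited gene model.

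The members spanned a wide range of levels, and the AKT kinases stood far above the other members. Akt1 averaged 48.9 FPKM over the 6 libraries and Akt2 26.5 FPKM, above 92.6% and 87.4% of the tested genes. The other members followed as Pik3r1 (3.08 FPKM), Irs1 (2.52 FPKM), Insr (2.51 FPKM), Gsk3b (2.13 FPKM), Irs2 (1.43 FPKM), Pik3ca (0.965 FPKM) and Igf1r (0.646 FPKM). Ranges over the libraries did not overlap between Akt1 and Akt2 or between Akt2 and Pik3r1, whereas each later neighbour in this order overlapped the next. These levels are per length and can be compared between genes. Gene models that overlap members (Mir6939 for Akt1, Gm36638 for Pik3r1, Gm37123 for Pik3ca, Vmn2r-ps88 for Insr and 9530052E02Rik for Irs2) averaged at most 0.305 FPKM, and how the counting split shared reads is not given.

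**Figure D1:**
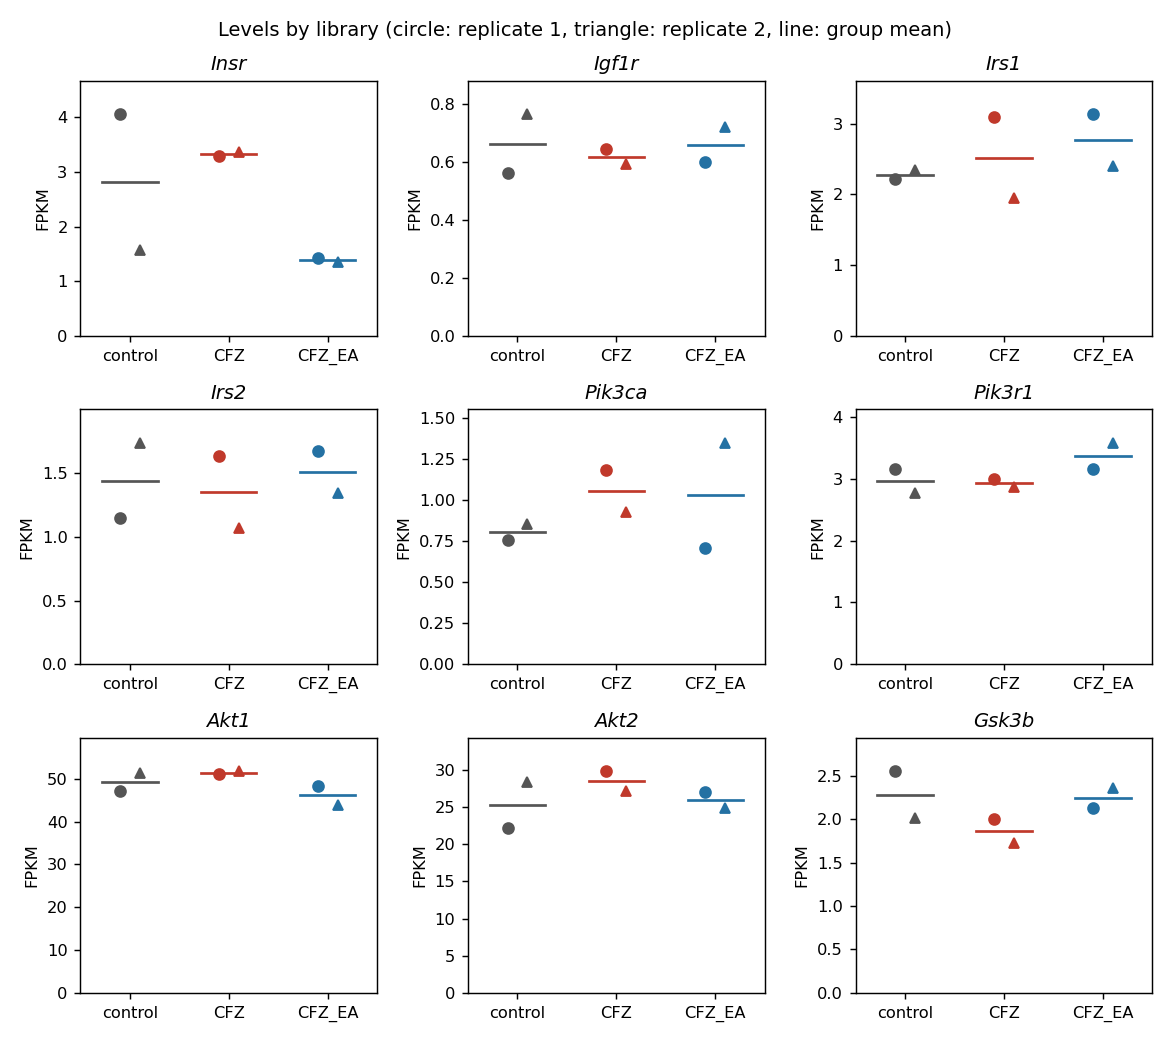
FPKM of each of the 9 genes (vertical axis, starting at 0) in the control, CFZ and CFZ_EA libraries; circles are replicate 1, triangles replicate 2 and lines group means. Insr is the gene whose libraries separate most widely, with control replicate 2 beside the CFZ_EA libraries at 1.57 FPKM and control replicate 1 at 4.05 FPKM.

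With all 6 libraries, no member passed the test in any comparison. With edgeR (quasi-likelihood, p-values adjusted over 10329 genes by Benjamini-Hochberg), 0 of 7 tested members were called for CFZ against control, where 0.029% of all tested genes were called. The same held for CFZ_EA against CFZ (0 of 7, with 0.0194% of all genes called) and for CFZ_EA against control (0 of 7, with 0.0% called). DESeq2 also called 0 of the 7 tested members in each comparison, and over the table it called 138 genes (1.34%), 55 genes (0.532%) and 52 genes (0.503%). At an unadjusted p under 0.05 there was 1 member, Insr in CFZ_EA against CFZ, where 3.09% of all genes were. The other comparisons had 0 members, with 7.72% of all genes for CFZ against control and 5.13% for CFZ_EA against control. Median log2 fold changes of the 7 members were 0.12, 0.15 and 0.11 in the 3 comparisons, beside medians of -0.0034, -0.0084 and -0.0013 over all tested genes. The second of these was -0.08 without CFZ replicate 2 and -0.03 without CFZ_EA replicate 1.

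Between-group separation was read on CPM (counts per library total, scaled with TMM factors). For CFZ against control both CFZ libraries lay above both control libraries for 3 of 9 members (Pik3ca, Akt1 and Akt2) and below for 0, against 18.4% and 18.7% of all tested genes (37.2% in either direction). For CFZ_EA against CFZ, 2 members lay higher (Pik3r1 and Gsk3b) and 3 lower (Insr, Akt1 and Akt2), against 16.7% in each direction (33.4% in either). For CFZ_EA against control, 1 lay higher (Irs1, background 16.6%) and 1 lower (Insr, background 17.8%), with 34.4% in either direction. The comparisons share libraries, so these counts are not independent of each other. Cardiomyocyte markers had the same directions as Akt1 and Akt2 in the first 2 comparisons: 14 of 14 had higher fitted levels in CFZ than in control (median log2 fold change 0.29) and 11 of 14 had lower ones in CFZ_EA than in CFZ (median -0.072), with 0 called. For CFZ_EA against control 14 of 14 were higher (median 0.18, 0 called), while Akt1 had a log2 fold change of -0.03 and Akt2 of 0.11. These markers summed to 33610 to 38623 FPKM for control, 41875 to 43445 FPKM for CFZ and 37671 to 41933 FPKM for CFZ_EA. Their part in the member values was not tested.

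**Figure D2:**
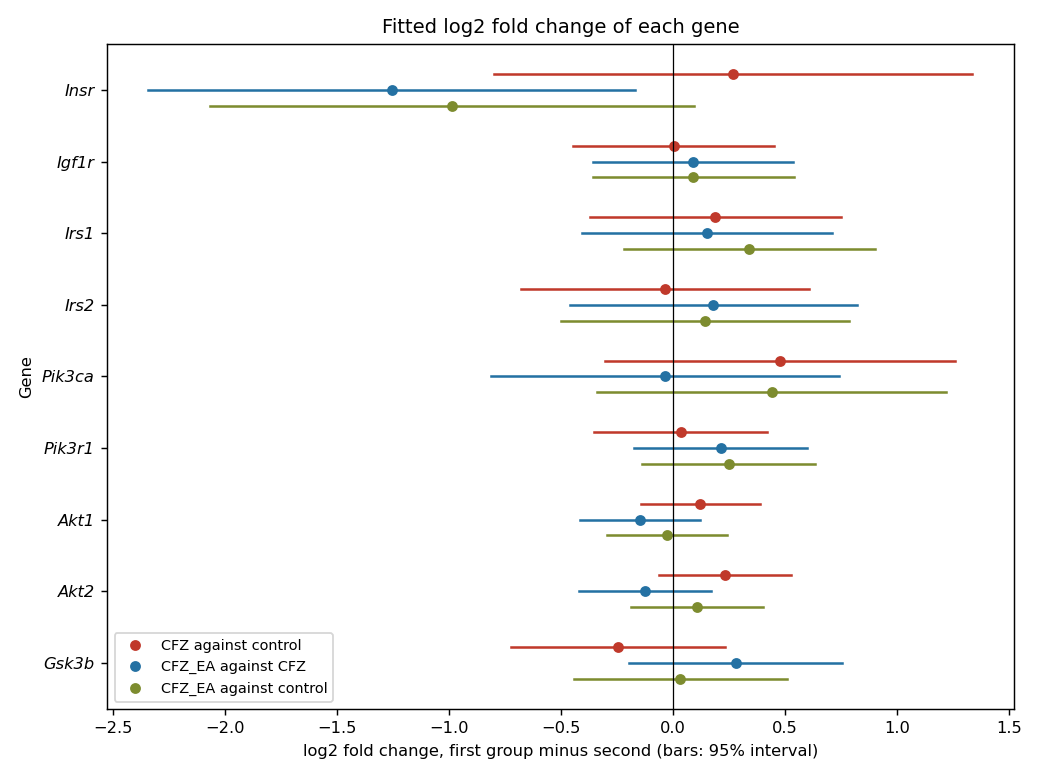
Fitted log2 fold change of each gene (horizontal axis, first group minus second) with its 95% interval in 3 comparisons, shown by colour. Each interval includes 0 except that of Insr in CFZ_EA against CFZ, which runs from -2.34 to -0.17, and the intervals of Akt1 are the narrowest.

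Among the receptors, Insr had the widest range over the libraries of all members, 3.02-fold from the lowest to the highest, and its control libraries disagreed. Insr encodes the insulin receptor (ENSMUSG00000005534, chromosome 8, 3122061 to 3279617, GRCm38, minus strand). It measured 4.05 and 1.57 FPKM in control replicates 1 and 2, 3.28 and 3.36 FPKM in CFZ, and 1.42 and 1.34 FPKM in CFZ_EA. Thus 3 libraries (control replicate 1 and both of CFZ) were high and 3 (control replicate 2 and both of CFZ_EA) were low. The CFZ and CFZ_EA libraries did not overlap and each pair lay close together, whereas the control pair spanned nearly the whole range.

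The group levels of Insr (mean ± SD of 2 libraries) were 2.81 ± 1.76 FPKM for control, 3.32 ± 0.0579 FPKM for CFZ and 1.38 ± 0.0546 FPKM for CFZ_EA. For CFZ_EA against CFZ the log2 fold change was -1.26 ± 0.44 (SE), with an unadjusted p of 0.0299 and an edgeR adjusted p of 0.9997. Over the alternatives it ran from -1.60 to -0.86, with edgeR, DESeq2 or limma adjusted p from 0.106 upwards. The spread that this test uses is estimated over all 3 groups: with control left out of the fit, the unadjusted edgeR p was 9.8e-05 and the adjusted p 0.113, so the gene was not called there either. That smaller fit dropped the pair of libraries between which Insr varied most. With 2 libraries a group it had too few degrees of freedom for its p to be relied on.

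Against control, the result for Insr rested on which control library was used. With both, the log2 fold change was 0.27 ± 0.44 for CFZ and -0.99 ± 0.44 for CFZ_EA (edgeR adjusted p = 0.881 and 0.848). Without control replicate 2 these were -0.30 and -1.55 (edgeR adjusted p = 0.9997 and 0.0984), and without control replicate 1 they were 1.21 and -0.04 (edgeR adjusted p = 0.0245 and 0.911). Insr was thus called higher in CFZ only without control replicate 1, in a fit that called 332 genes over the table. The direction for CFZ therefore reversed with the control library chosen. Its within-group SD of 0.61 on the log2 scale was larger than that of 94.2% of tested genes, whose median was 0.18.

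**Figure D3:**
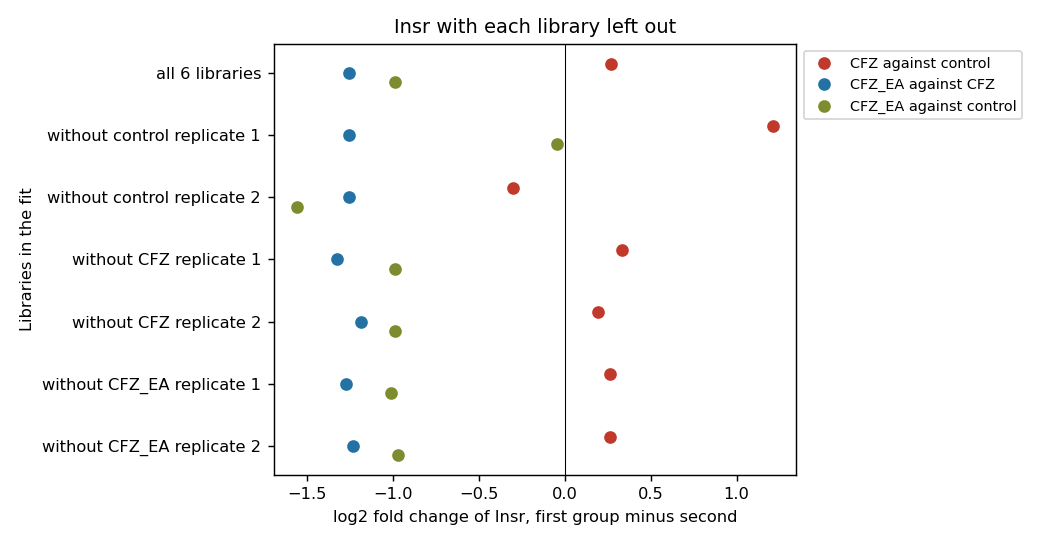
Log2 fold change of Insr (horizontal axis) in the 3 comparisons, shown by colour, with all 6 libraries and with each library left out in turn (vertical axis). CFZ_EA against CFZ stays between -1.32 and -1.18, while CFZ against control moves from -0.30 to 1.21 with the control library left out.

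Library measures beside Insr were as follows. Summed endothelial markers were 428 to 444 FPKM in CFZ_EA, 477 to 521 FPKM in CFZ and 482 to 493 FPKM in control, with 0 of the 13 markers undetected in any library. The control libraries, between which Insr differed, stood apart in other markers: replicates 1 and 2 had 323 and 939 FPKM of macrophage markers and 1004 and 2116 FPKM of fibroblast markers. Neutrophil markers, of which Ly6g was at 0 in all libraries but control replicate 2, summed to 1.71 and 21.5 FPKM in control replicates 1 and 2. In CFZ and CFZ_EA, which Insr separated, macrophage markers summed to 246 to 280 FPKM and 246 to 291 FPKM. In the same 2 groups fibroblast markers summed to 695 to 773 FPKM and 1015 to 1077 FPKM. Atrial markers summed to 347 to 456 FPKM and 1117 to 5905 FPKM there. Epicardial and mesothelial markers summed to 3.87 to 4.24 FPKM and 4.76 to 12.3 FPKM. The macrophage ranges overlapped between CFZ and CFZ_EA, and the fibroblast, atrial and epicardial ranges did not. Mitochondrially encoded genes took 20.7% of counts in control replicate 1 and 14.8% in replicate 2, 17.9% and 19.4% in CFZ, and 19.0% and 21.3% in CFZ_EA. The part of cell composition in the Insr values was not tested. In bulk tissue, fewer cells of a type and less RNA per cell cannot be told apart.

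Igf1r encodes the receptor for IGF1 (ENSMUSG00000005533, chromosome 7, 67952827 to 68233668, plus strand). It measured 0.560 and 0.763 FPKM in the control libraries, 0.643 and 0.591 FPKM in those of CFZ, and 0.60 and 0.718 FPKM in the CFZ_EA pair. All 3 groups overlapped. Log2 fold changes were 0.0035 ± 0.18 for CFZ against control, 0.09 ± 0.18 for CFZ_EA against CFZ and 0.09 ± 0.18 for CFZ_EA against control (edgeR adjusted p of at least 0.948). Their 95% intervals ended at -0.44 and 0.54 at the farthest, which leaves room for differences of that size in either direction. The first value was -0.13 and 0.15 without control replicate 1 and 2, and the second was 0.22 and -0.059 without CFZ_EA replicate 1 and 2. The third was -0.046 and 0.24 without control replicate 1 and 2, and 0.22 and -0.055 without CFZ_EA replicate 1 and 2.

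The balance of the receptors followed Insr. Insr exceeded Igf1r 7.24-fold and 2.05-fold in control replicates 1 and 2, 5.10-fold and 5.69-fold in CFZ, and 2.37-fold and 1.87-fold in CFZ_EA, by FPKM. Insr transcripts were the more abundant in all 6 libraries. A ratio within a library does not depend on the scaling between libraries, and the CFZ and CFZ_EA ratios did not overlap. With 2 libraries a group no exact two-sided test can go below p = 0.333, so none was made.

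The adaptors that dock PI3K to the active receptors overlapped between most groups. Irs1 (ENSMUSG00000055980, chromosome 1, 82233101 to 82291416) measured 2.22 and 2.34 FPKM in the control libraries, 3.10 and 1.95 FPKM in those of CFZ, and 3.13 and 2.40 FPKM in the CFZ_EA pair. The CFZ libraries enclosed the control pair, and both CFZ_EA libraries lay above control. Irs2 (ENSMUSG00000038894, chromosome 8, 10984681 to 11008458) measured 1.14 and 1.73 FPKM in the control libraries, 1.63 and 1.07 FPKM in those of CFZ, and 1.67 and 1.34 FPKM in the CFZ_EA pair, and no groups separated.

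For Irs1 the log2 fold changes were 0.19 ± 0.23, 0.15 ± 0.23 and 0.34 ± 0.23 for CFZ against control, CFZ_EA against CFZ and CFZ_EA against control (edgeR adjusted p = 0.843, 0.9997 and 0.856). For Irs2 they were -0.04 ± 0.26, 0.18 ± 0.26 and 0.14 ± 0.26 (edgeR adjusted p = 0.985, 0.9997 and 0.942). Without CFZ replicate 1 and 2, CFZ against control was -0.12 and 0.45 for Irs1 and -0.31 and 0.20 for Irs2, and CFZ_EA against CFZ was 0.47 and -0.10 for Irs1 and 0.46 and -0.047 for Irs2. Without CFZ_EA replicate 1 and 2, CFZ_EA against control was 0.16 and 0.51 for Irs1 and 0.0051 and 0.28 for Irs2. In both carfilzomib groups replicate 1 was the higher library for both adaptors. Over the 6 libraries their log2 levels had a Pearson r of 0.71, the second highest among the 36 pairs of members, given as a description of libraries that also share depth and composition. Between control replicates 1 and 2 they moved apart, with TMM-scaled CPM of 22.6 and 21.8 for Irs1 and 8.05 and 11.2 for Irs2. The ratio of Irs1 to Irs2 lay between 1.78 and 1.94 in 5 libraries and at 1.35 in control replicate 2.

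PI3K subunits also showed no called difference. Pik3ca, the catalytic subunit p110 alpha (ENSMUSG00000027665, chromosome 3, 32397671 to 32468486), measured 0.760 and 0.859 FPKM in the control libraries, 1.19 and 0.927 FPKM in those of CFZ, and 0.709 and 1.35 FPKM in the CFZ_EA pair. Both CFZ libraries lay above both of control, while the CFZ_EA pair spanned the other groups. The log2 fold changes were 0.48 ± 0.32 for CFZ against control, -0.04 ± 0.32 for CFZ_EA against CFZ and 0.44 ± 0.32 for CFZ_EA against control (edgeR adjusted p = 0.694, 1.0 and 0.866). The last of these was 0.84 without CFZ_EA replicate 1 and -0.11 without CFZ_EA replicate 2.

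Pik3r1 encodes the regulatory subunit p85 alpha and its shorter forms, which hold the catalytic subunit stable and dock it to the adaptors (ENSMUSG00000041417, chromosome 13, 101680563 to 101768217). It measured 3.15 and 2.76 FPKM in the control libraries, 2.99 and 2.86 FPKM in those of CFZ, and 3.15 and 3.58 FPKM in the CFZ_EA pair. CFZ_EA lay above CFZ in both libraries, and the difference was within the spread the test allows (log2 fold change 0.21 ± 0.16, edgeR adjusted p = 0.9997). Against control the log2 fold change was 0.04 ± 0.16 for CFZ and 0.25 ± 0.16 for CFZ_EA (edgeR adjusted p = 0.969 and 0.852), and these were 0.21 and 0.43 without control replicate 1 and -0.12 and 0.093 without control replicate 2. The value for CFZ_EA against CFZ was 0.10 without CFZ_EA replicate 2. Pik3r1 exceeded Pik3ca by FPKM in all libraries, from 2.52-fold to 4.45-fold, with both extremes in carfilzomib groups.

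Akt1 and Akt2 were the most abundant members and among the most even. Akt1, the most widely expressed AKT (ENSMUSG00000001729, chromosome 12, 112653821 to 112674884), measured 47.2 and 51.2 FPKM in the control libraries, 51.1 and 51.7 FPKM in those of CFZ, and 48.4 and 44.0 FPKM in the CFZ_EA pair. The highest library exceeded the lowest 1.18-fold, and the within-group SD of 0.064 on the log2 scale was larger than that of only 6.54% of tested genes. The log2 fold changes were 0.12 ± 0.11 for CFZ against control, -0.15 ± 0.11 for CFZ_EA against CFZ and -0.03 ± 0.11 for CFZ_EA against control (edgeR adjusted p = 0.788, 0.9997 and 0.974). Without CFZ replicate 2 the first and second were 0.062 and -0.084, without CFZ_EA replicate 2 the second was -0.096, and without CFZ_EA replicate 1 and 2 the last was -0.071 and 0.025. As folds, the 95% intervals were 0.904 to 1.31, 0.750 to 1.09 and 0.816 to 1.18. On FPKM the CFZ and control libraries of Akt1 overlapped, and on TMM-scaled CPM they did not.

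Akt2, the AKT most tied to insulin-stimulated glucose uptake (ENSMUSG00000004056, chromosome 7, 27591552 to 27640826), measured 22.2 and 28.3 FPKM in the control libraries, 29.8 and 27.1 FPKM in those of CFZ, and 27.0 and 24.8 FPKM in the CFZ_EA pair. Control replicate 1 was the lowest library. As for Akt1, the CFZ and control libraries of Akt2 overlapped on FPKM and did not on TMM-scaled CPM. The log2 fold changes were 0.23 ± 0.12, -0.13 ± 0.12 and 0.11 ± 0.12 in the order used for Akt1 (edgeR adjusted p = 0.679, 0.9997 and 0.903), and the 95% interval for CFZ against control ran from 0.958-fold to 1.44-fold. Without control replicate 1 the first and last values for Akt2 were 0.13 and 0.0097, and without control replicate 2 they were 0.34 and 0.22. The value for CFZ_EA against CFZ was -0.083 without CFZ_EA replicate 2. By FPKM, Akt1 exceeded Akt2 1.72-fold to 2.12-fold over the libraries. By estimated counts, which are not per length, the ratio ran from 0.985 in CFZ replicate 1 to 1.22 in control replicate 1.

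**Figure D4:**
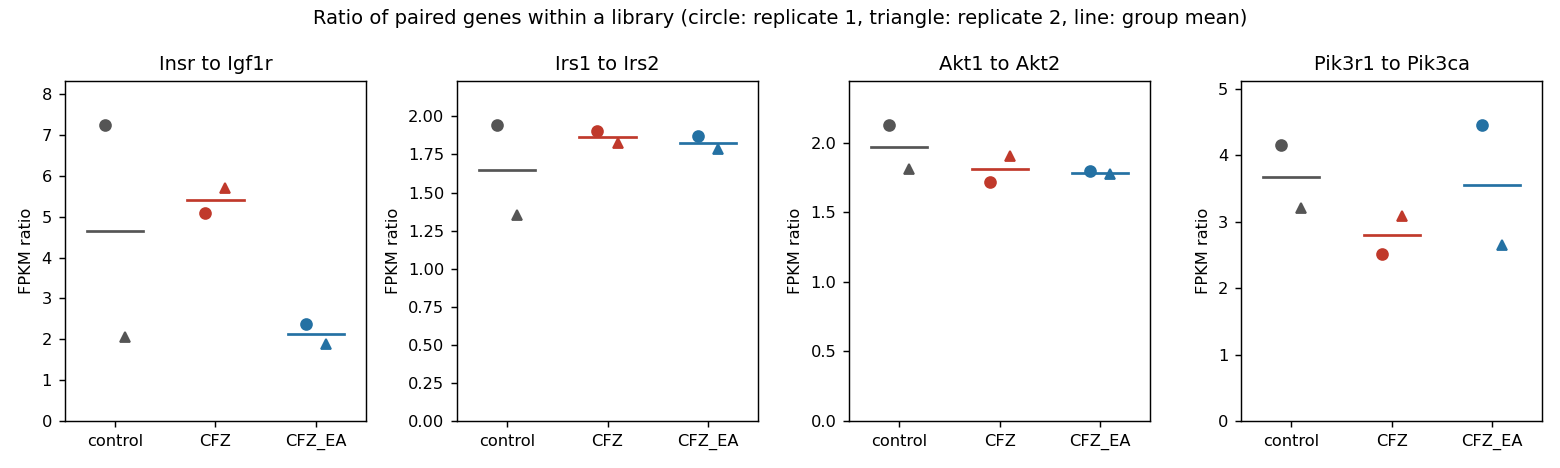
Ratio of the FPKM of paired genes within each library (vertical axes, starting at 0) by group; circles are replicate 1, triangles replicate 2 and lines group means. The Insr to Igf1r ratio separates CFZ (5.10 and 5.69) from CFZ_EA (2.37 and 1.87), with control on both sides, while Akt1 to Akt2 stays between 1.72 and 2.12.

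Gsk3b encodes glycogen synthase kinase 3 beta, which AKT inhibits (ENSMUSG00000022812, chromosome 16, 38089001 to 38246084). It measured 2.55 and 2.01 FPKM in the control libraries, 2.00 and 1.73 FPKM in those of CFZ, and 2.13 and 2.36 FPKM in the CFZ_EA pair. By FPKM CFZ held the lowest libraries, and both CFZ_EA libraries lay above both of CFZ. On TMM-scaled CPM control replicate 2 (20.1) lay below CFZ replicate 1 (21.1), so CFZ and control overlapped. The log2 fold changes were -0.25 ± 0.20 for CFZ against control, 0.28 ± 0.20 for CFZ_EA against CFZ and 0.03 ± 0.19 for CFZ_EA against control (edgeR adjusted p = 0.764, 0.9997 and 0.984). Leaving out control replicate 1 gave 0.01 for the first of these, and leaving out control replicate 2 gave -0.47. Its paralogue Gsk3a was far more abundant, at 32.9 ± 0.492, 32.5 ± 2.14 and 30.7 ± 3.11 FPKM for control, CFZ and CFZ_EA (SD of 2 libraries), so Gsk3b made up 5.29% to 7.66% of the summed FPKM of the pair.

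The members did not share 1 pattern over the libraries. Over the 6 libraries Pearson's r between pairs of members, on log2 levels, ran from -0.83 (Akt2 and Gsk3b) to 0.74 (Pik3r1 and Gsk3b), and Insr had -0.70 with Igf1r. Among all tested genes with a proper symbol, those most like Insr over the 6 libraries were Rpusd2, Aes and Atp5o (r = 0.97, 0.97 and 0.96). The genes most like Pik3r1 were Ghr, the growth hormone receptor, with Hibch and Cacybp (r = 0.99 each), and those most like Irs1 were Dot1l, Kpna6 and Irx2 (r = 0.99 each). The most alike were Syde1 for Igf1r, Ing5 for Irs2, Npepps for Pik3ca, Rps19bp1 for Akt1, Farsb for Akt2 and Wdr20 for Gsk3b (r from 0.97 to 0.99). With 6 libraries and 10329 genes such values describe likeness of pattern only.

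Other genes of the pathway were taken from 8 lists of ligands, receptors, PI3K subunits, brakes, AKT and its kinases, AKT substrates, GSK3B partners and FOXO targets. Of 127 listed genes 124 were in the table and 100 were tested. In each of the 3 comparisons 0 were called higher and 0 lower by edgeR over all tested genes. At an unadjusted p under 0.05, 1 was higher and 7 were lower in CFZ against control, where 1.82% and 5.9% of all tested genes were. The counts were 3 and 1 for CFZ_EA against CFZ (2.01% and 1.07% of all genes) and 0 and 4 for CFZ_EA against control (1.47% and 3.66%). The medians of the 100 genes were 0.026, -0.0038 and 0.046 on the log2 scale.

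**Figure D5:**
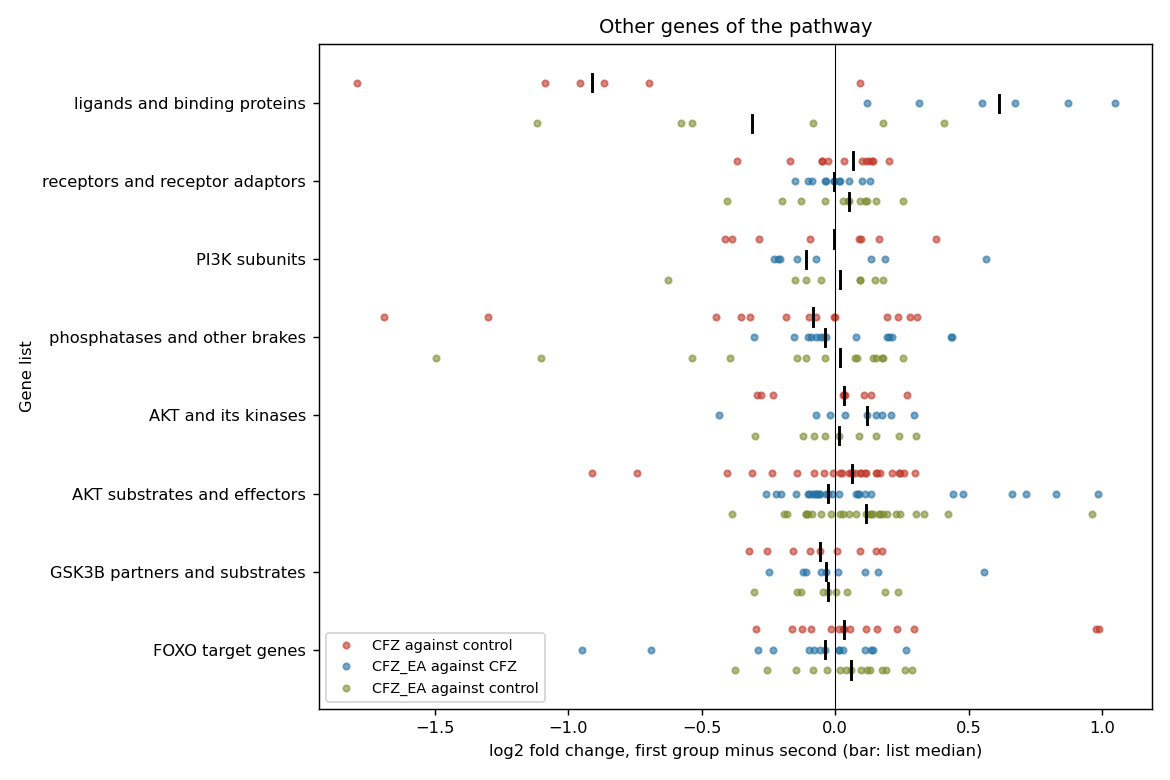
Log2 fold change (horizontal axis, first group minus second) of each tested gene in 8 pathway lists, with colours for the comparisons and black bars for list medians. The list of ligands and binding proteins has medians of -0.91 for CFZ against control, 0.61 for CFZ_EA against CFZ and -0.31 for CFZ_EA against control, while those of the other lists lie between -0.11 and 0.12.

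Ligands and their binding proteins were the list with the largest median differences. IGF-binding proteins are secreted and can set how much IGF reaches the receptor, though not each to the same degree. The 6 tested genes of this list are Igf2 and Igfbp3 to Igfbp7, which carry that family's name. Of these, 5 had lower and 1 had higher fitted levels in CFZ than in control (median log2 fold change -0.91), and 6 of 6 had higher fitted levels in CFZ_EA than in CFZ (median 0.61). In CFZ_EA against control 4 of 6 were lower and 2 higher (median -0.31), and this median was -0.0054 without CFZ_EA replicate 1, -0.63 without CFZ_EA replicate 2 and -0.028 without control replicate 2. Without control replicate 2 the first median was -0.71, and without CFZ_EA replicate 2 the second was 0.34. Without control replicate 1, 3 of the 6 genes were called for CFZ against control by edgeR, in the fit that called 332 genes. Insulin is made in the pancreas, and Ins1 and Ins2, which are on the list, were not found by symbol in the table of genes.

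Igfbp6, which prefers IGF2, measured 27.6 and 59.1 FPKM in the control libraries, 11.3 and 12.4 FPKM in those of CFZ, and 14.9 and 22.6 FPKM in the CFZ_EA pair. No library of either carfilzomib group reached a control library. Its log2 fold change for CFZ against control was -1.79 ± 0.37 (edgeR adjusted p = 0.608), and -1.23 without control replicate 2. Igfbp4 and Igfbp5 had -1.09 ± 0.34 and -0.96 ± 0.34 in the same comparison (edgeR adjusted p = 0.608 each), and Igfbp4 had -0.51 without control replicate 2.

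Igf2, a ligand of the IGF1 receptor, measured 9.02 and 9.45 FPKM in the control libraries, 5.81 and 3.98 FPKM in those of CFZ, and 6.77 and 13.2 FPKM in the CFZ_EA pair. CFZ held both of the lowest libraries. The log2 fold change for CFZ_EA against CFZ was 1.05 ± 0.33 (edgeR adjusted p = 0.9997), and 0.47 without CFZ_EA replicate 2. Igfbp5 had 0.87 ± 0.34 in that comparison (edgeR adjusted p = 0.9997) and 0.35 without CFZ_EA replicate 2. Igf1, the other ligand, stayed below the limit for testing, at 0.689 and 1.73 FPKM in the control libraries, 0.447 and 0.475 FPKM in those of CFZ, and 0.478 and 0.835 FPKM in the CFZ_EA pair.

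Markers of fibroblasts ran in the same sense as this list. Their summed level was 1004 to 2116 FPKM for control, 695 to 773 FPKM for CFZ and 1015 to 1077 FPKM for CFZ_EA. Of 13 markers, 13 had lower fitted levels in CFZ than in control and 13 had higher ones in CFZ_EA than in CFZ, with 0 called and 0 undetected in any library. Markers of atrial muscle ran likewise in these 2 comparisons, with 9 of 9 tested lower in CFZ than in control and 9 of 9 higher in CFZ_EA than in CFZ. So did markers of epicardium and mesothelium, which summed to 20.8 to 50.7 FPKM for control, 3.87 to 4.24 FPKM for CFZ and 4.76 to 12.3 FPKM for CFZ_EA, with 5 of 5 tested lower and then higher. For CFZ_EA against control, 4 of 6 genes of the ligand list were lower. There 12 of 13 fibroblast markers (median -0.78) and 5 of 5 epicardial and mesothelial markers (median -2.21) were lower. Of the atrial markers, 8 of 9 were higher (median 0.47). The fitted levels of other markers also differed between CFZ and control. Macrophage markers were lower in 12 of 12 (median -0.99), erythroid markers in 5 of 5 (-0.77) and neutrophil markers in 2 of 2 (-1.35), while cardiomyocyte markers were higher as given above. By sum, neutrophil markers were at 3.39 to 4.23 FPKM in CFZ, between control replicates 1 and 2 (1.71 and 21.5 FPKM). Macrophage markers summed to 246 to 280 FPKM in CFZ against 323 and 939 FPKM in those control libraries. Between CFZ_EA and CFZ, macrophage markers were 6 higher and 6 lower, erythroid 2 higher and 3 lower, and neutrophil 2 of 2 higher, and none of these lists had a called gene. The part of any of these in the ligand list was not tested.

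Further along the pathway, few genes reached an unadjusted p under 0.05. Mapkap1, the SIN1 subunit of the mTORC2 complex that phosphorylates AKT, measured 8.35 and 9.24 FPKM in the control libraries, 10.1 and 8.45 FPKM in those of CFZ, and 6.73 and 6.90 FPKM in the CFZ_EA pair, below every library of the other groups. Its log2 fold change was -0.43 ± 0.12 for CFZ_EA against CFZ and -0.30 ± 0.12 for CFZ_EA against control (edgeR adjusted p = 0.9997 and 0.848). Txnip, a brake on glucose uptake, measured 79.7 and 66.2 FPKM in the control libraries, 184 and 96.9 FPKM in those of CFZ, and 78.9 and 92.2 FPKM in the CFZ_EA pair. Its log2 fold change for CFZ against control was 0.98 ± 0.29 (edgeR adjusted p = 0.608), and 0.51 without CFZ replicate 1.

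Of the brakes on the pathway, the receptor phosphatase Ptprf had -1.30 ± 0.43 for CFZ against control and -1.10 ± 0.42 for CFZ_EA against control (edgeR adjusted p = 0.608 and 0.848). These were -0.55 and -0.35 without control replicate 2, and -1.79 and -1.58 without control replicate 1. The lipid phosphatase Inpp4a had 0.44 ± 0.14 for CFZ_EA against CFZ (edgeR adjusted p = 0.9997). Of the AKT substrates, the cell cycle inhibitor Cdkn1a had -0.91 ± 0.35 for CFZ against control and Pea15a had -0.39 ± 0.14 for CFZ_EA against control (edgeR adjusted p = 0.625 and 0.848). The 2 values were -0.33 and -0.23 without control replicate 2, and -1.32 and -0.52 without control replicate 1. Receptor adaptors, PI3K subunits and GSK3B partners had 0 genes at an unadjusted p under 0.05 in each comparison.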

How the data were processed

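RNA of 6 mouse heart samples, 2 per group, was sequenced after poly(A) selection with a strand-marking kit as paired reads of 150 bases, per the labels' protocols. StringTie 1.3.4d, HISAT2 2.0.4, cutadapt 1.9 and the build GRCm38 are named, without roles, by the submitters' processing notes. Not given in the sources used here were the use of strand, filters, the counter and the annotation release. The authors deposited 1 table with FPKM and estimated counts per gene and library. The deposited estimated counts were whole numbers, of which 42.2% to 43.3% between 1 and 20 were multiples of 4, against 25% by chance. The deposited FPKM gave the levels (mean ± SD), the filter and the ratios.

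Counts were tested with edgeR 4.0.16 in R 4.3.3 (quasi-likelihood, TMM factors, 1 model over all groups, 3 residual degrees of freedom). Genes needed a mean of at least 1 FPKM, and calls an adjusted p below 0.05 (Benjamini-Hochberg). Intervals are 95%. Library totals of 50013990 to 75742448 put 3 counts at 0.0396 to 0.0600 CPM, a floor that covers counting error only. DESeq2 1.42.0, limma 3.58.1 on log2(FPKM + 1) or log2(FPKM + 0.1), other scalings and filters, and leaving out each library were the alternatives. All members are named, with, per pathway list and comparison, up to 3 genes of the smallest unadjusted p under 0.05, fixed ligands and paralogues, and the genes most correlated with a member. A gene that this rule also names is not reported here. Members and lists were chosen with earlier results of these data known.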

Additional observations from a re-analysis of the deposited data

How the results depend on the processing

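Each comparison was repeated under 23 alternatives. Members called stayed at 0 in all of them, apart from 1 (Insr) for CFZ against control without control replicate 1. Pik3ca and Igf1r entered only 6 leave-out fits and 1 other alternative, so the remaining alternatives covered at most 7 of the 9 members. Genes called over the table were 3, 2 and 0 for CFZ against control, CFZ_EA against CFZ and CFZ_EA against control, and 138, 55 and 52 with DESeq2. For the first they were 1 with counts divided by 4, 0 with only the 2 groups compared, 0 with overlapping gene models summed and 1 with atrial marker level as a covariate, and for the second 1, 3, 0 and 0 in that order. Leaving out replicates, with the remaining library of a group assumed to vary like the others, gave 0 to 332, 0 to 4 and 0 to 231 genes, the highest of the first and last without control replicate 1. It gave 0 to 1, 0 to 0 and 0 to 0 members, and member medians of 0.053 to 0.20, -0.084 to 0.19 and 0.0097 to 0.14. The median for CFZ_EA against CFZ was -0.11 at a mean of at least 5 FPKM, where only Akt1 and Akt2 are left, and -0.026 with the atrial covariate.

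With the atrial covariate the log2 fold change reversed to -0.081 for Irs1 and 0.039 for Gsk3b in CFZ against control, and to -0.076 for Pik3r1, 0.014 for Akt2 and -0.026 for Gsk3b in CFZ_EA against CFZ. In CFZ against control, Irs2 was 0.0039 at a mean of at least 0.1 FPKM and 0.017 with no filter, and Pik3r1 was -0.016 with library totals only and -0.0095 and -0.012 with limma on log2(FPKM + 1) and log2(FPKM + 0.1). In CFZ_EA against control, Akt1 was 0.0031 with no filter, and Gsk3b was -0.025, -0.012 and -0.014 under library totals and those limma settings. The cause was not tested.

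Leaving out a replicate also took some fitted log2 fold changes across 0, none of them called on either side except Insr as given. For CFZ against control these were Gsk3b (-0.47 to 0.013), Igf1r (-0.13 to 0.15), Insr (-0.30 to 1.21), Irs1 (-0.12 to 0.45), Irs2 (-0.31 to 0.21) and Pik3r1 (-0.12 to 0.21). For CFZ_EA against CFZ these were Igf1r (-0.059 to 0.22), Irs1 (-0.10 to 0.47), Irs2 (-0.047 to 0.46) and Pik3ca (-0.59 to 0.36). For CFZ_EA against control these were Akt1 (-0.071 to 0.025), Gsk3b (-0.28 to 0.30), Igf1r (-0.055 to 0.24), Irs2 (-0.063 to 0.53), Pik3ca (-0.11 to 0.84) and Pik3r1 (-0.016 to 0.43).

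Same-numbered deviations had r of -0.062, -0.043 and 0.079 between groups. With 2 libraries a group each deviation is a single difference per gene, so these values cannot decide whether replicate numbers pair the libraries. With the replicate block, 2, 2 and 0 genes and 0 members were called, the member medians were 0.12, 0.16 and 0.11, and Insr had -1.27 for CFZ_EA against CFZ. Members had 429 to 15113 estimated counts in a library, and the part of depth in these results was not tested.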
